A study of Mus musculus with 9 samples.

Results

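A set of 7 long non-coding RNA genes known for transcripts that are kept in the cell nucleus, Malat1, Neat1, Meg3, Miat, Rian, Mirg and Snhg11, were followed through 9 libraries of ribosome-associated RNA from mouse dorsal striatum. The genes were chosen by name, with earlier results of these data known, and matched to 7 of the 47729 gene identifiers in the deposited tables. Of the 7, 5 were high enough to be tested among 13695 genes: Malat1, Neat1, Miat, Mirg and Snhg11. The mice carried D1-Cre, a recombinase driven from dopamine D1 receptor sequences, and RiboTag, a hemagglutinin (HA) tag that recombination places on a ribosomal protein, so that polyribosomes of D1 medium spiny neurons can be precipitated from whole tissue. All animals had a C57BL/6 background and were 28 days old (P28). The control group, D1-Cre-RT, had these alleles and no other. In D1-Cre-flTrkB-RT mice the gene of the neurotrophin receptor TrkB, Ntrk2, was also floxed, and these mice were divided by behaviour into a group with stereotypy (repetitive movement) and a group without it. Each of the 3 groups had 3 libraries, described by the submitters as biological replicates, and p-values measure the spread between these libraries only. The sources do not say whether a library came from 1 animal or a pool, or what the zygosity of the floxed allele was. No nuclear fraction and no input library without precipitation is among the samples, so the levels below are those in the precipitates alone.

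Messenger RNA is exported to be read by ribosomes, whereas many long non-coding RNAs stay at or near chromatin, and a tagged ribosomal protein also passes through the nucleus, where ribosomal subunits are assembled. Malat1 gathers in nuclear speckles, bodies rich in splicing factors, and Neat1 is the scaffold of paraspeckles, bodies built on RNA and the proteins Nono, Sfpq and Pspc1. Miat (also called Gomafu) is a neuronal nuclear RNA that binds splicing factors. Meg3, Rian and Mirg lie in a row in the imprinted Dlk1-Dio3 domain and are expressed from the maternal chromosome; Rian hosts small nucleolar RNAs and Mirg hosts a large microRNA cluster. Snhg11 is a neuronal host gene of small nucleolar RNAs, and the GENCODE M21 annotation used here types it as protein-coding.

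In GRCm38 coordinates, Malat1 occupies chr19:5795690-5802672 and Neat1 chr19:5824708-5845478, both on the minus strand, each as 1 unbroken block of exon sequence, 22035 bases apart. Meg3 (chr12:109541001-109571726), Rian (chr12:109603940-109661716) and Mirg (chr12:109729764-109749460) are on the plus strand of chromosome 12. Miat lies at chr5:112213228-112229395 on the minus strand and Snhg11 at chr2:158375638-158386145 on the plus strand. The ends of Malat1 and Neat1 are shown because they set these 2 RNAs apart from nearly all other transcripts in the libraries. Transcripts that end in this way need no poly(A) tail added after cleavage: a pair of U-rich runs and a genome-encoded A-rich tract fold into a triple helix at the 3′ end. GENCODE M21 lists 4 transcripts for each of these 2 genes. Levels are per gene, so the transcripts could not be told apart. The stretches below are 100 bases of the longest GENCODE M21 transcript of each gene, 5′ to 3′, up to and including the A-rich tract, with the searched runs TTTCTTTT, TTTGCTTTT and AAAGCAAAA in capitals.

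Malat1: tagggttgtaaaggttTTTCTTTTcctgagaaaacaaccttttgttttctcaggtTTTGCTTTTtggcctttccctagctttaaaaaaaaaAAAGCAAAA
Neat1: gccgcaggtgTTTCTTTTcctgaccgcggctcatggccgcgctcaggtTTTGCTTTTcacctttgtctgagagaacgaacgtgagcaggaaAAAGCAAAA

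The tract ended 292 bases before the annotated end in Malat1 and at the last base in Neat1. The runs were picked for this known element. TTTCTTTT was present in 28.1% of the 13655 tested genes' longest transcripts, TTTGCTTTT in 7.46% and AAAGCAAAA in 6.39%. All 3 within 100 bases that ended at the tract were found in 2 transcripts, those of Malat1 and Neat1. How RNA was selected for these libraries, by poly(A) tails or by ribosomal RNA removal, is not given in the sources used here, and the extracted molecule is labelled as total RNA.

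Values are CPM, reads of a gene scaled to a fixed total of reads per library. The libraries held 27103152 to 40578512 counted reads, and each deposited CPM corresponded to a whole number of reads, so that 3 reads equal 0.0739 to 0.111 CPM. Ntrk2, the floxed gene, was at 319 to 487 CPM in the control libraries, 34.3 to 43.9 with stereotypy and 14.1 to 23.4 without it. Drd1, the defining receptor of D1 neurons, was at 515 to 955 CPM, and Penk, a D2 neuron marker, at 168 to 1013 CPM, so D2 marker RNA was present in every library. Certain libraries stood apart. Xist, the RNA of the inactive X chromosome, was at 109 CPM in stereotypy replicate 3 and 17.9 in no-stereotypy replicate 3, against at most 4.21 in the other libraries. The Y-linked gene Ddx3y was at 0.959 and 5.03 CPM in those 2 libraries and at 38.8 to 86.8 in the rest. The labels give no sex. Control replicate 3 resembled the no-stereotypy libraries in its levels of the nuclear RNAs.

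Malat1 was the most abundant of the 7 RNAs, and its level separated the stereotypy libraries from the no-stereotypy libraries. It was at 851, 760.2 and 222 CPM in control replicates 1, 2 and 3, at 1039.8, 795 and 669 CPM with stereotypy, and at 201, 313 and 305 CPM without stereotypy. All stereotypy libraries were above all no-stereotypy libraries, while the controls spanned both, with replicates 1 and 2 high and replicate 3 low. These values rest on 7233 to 31107 reads a library. Means were 611 ± 340.3 CPM in controls, 835 ± 189 with stereotypy and 273 ± 62.4 without it (SD, n = 3 each), a ratio of 3.06 between the 2 TrkB-deleted groups. On the log2(CPM + 1) scale Malat1 was higher with stereotypy than without by 1.61 (SE 0.42, limma adjusted p = 0.0377). Gm37376, a gene model that overlaps Malat1 on the opposite strand, was at 10.2, 7.65 and 3.36 CPM with stereotypy and 1.5, 1.79 and 0.148 without it. Whether counting used strand is not given in the sources used here, so reads of this pair may not be separable.

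Snhg11 was the next most abundant. The control libraries had 283, 132 and 68.6 CPM, the stereotypy libraries 479, 304 and 205 CPM and the no-stereotypy libraries 111, 90.4 and 99.7 CPM. Replicate 1 was highest in each group, and the no-stereotypy values lay close together, below every stereotypy value. Group means were 161 ± 110.3, 329 ± 138 and 100.4 ± 10.4 CPM, in that order (SD, n = 3). The difference between the TrkB-deleted groups was 1.62 on the log2(CPM + 1) scale (SE 0.42, limma adjusted p = 0.0384), a ratio of means of 3.28.

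Mirg, the microRNA host of the Dlk1-Dio3 domain, was rare but showed the same order. It stood at 3.5, 2.01 and 1.38 CPM in controls, 7.23, 3.44 and 2.69 with stereotypy and 1.68, 1.09 and 1.31 without it, from 39 to 202 reads. The lowest stereotypy library exceeded the highest no-stereotypy library, and control replicate 1 lay within the stereotypy range. The stereotypy-minus-no-stereotypy difference was 1.13 (SE 0.31, limma adjusted p = 0.0431), and the means differed 3.28-fold. The RefSeq table places 14 microRNA hairpins with 26 mature microRNAs inside Mirg. Among them 2 share a seed, the bases (2 to 8, in capitals) that pair with target messages, and are shown because no other pair of mature microRNAs in Mirg does. They are encoded at chr12:109735669-109735692 and chr12:109739132-109739152 (GRCm38, RefSeq, plus strand).

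mmu-miR-453: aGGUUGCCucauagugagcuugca
mmu-miR-496a-5p: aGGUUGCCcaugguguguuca

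Mature microRNAs were not measured in these libraries, so the Mirg value describes the host transcript.

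Neat1, the paraspeckle scaffold, varied most among the tested RNAs. Control replicates 1 to 3 had 24.4, 17.9 and 3.0 CPM, an 8.13-fold spread inside 1 group. The stereotypy libraries had 35.1, 11.4 and 13.6 CPM and the no-stereotypy libraries 8.04, 3.81 and 5.27 CPM, with no overlap between these groups. With that spread the difference of 1.53 (SE 0.61) did not pass the threshold (limma adjusted p = 0.124). Miat differed least. It was at 25.2, 13.2 and 11.4 CPM in controls, 37.1, 25.6 and 14.9 with stereotypy and 18.6, 12.8 and 18.95 without it, and all groups overlapped. Its stereotypy-minus-no-stereotypy value was 0.53 (SE 0.33, limma adjusted p = 0.309).

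Meg3 and Rian, both known as abundant neuronal RNAs of the Dlk1-Dio3 domain, were nearly or wholly without counted reads. Meg3 was at 0.383, 0.170 and 0.184 CPM in controls, 0.394, 0.0321 and 0.148 with stereotypy and 0.103, 0.0840 and 0.0986 without it, that is 1 to 14 reads a library, beside a limit of 3 reads. No fold is given for Meg3. Rian was listed at 0 in all 9 libraries. A listed 0 is not evidence of absence in these files: Srsf1 and Sf1, splicing factors that all cells use, were also listed at 0 throughout, as were 4760 of 21697 protein-coding genes. In the M21 annotation Meg3 shared 8.29% of its exon bases with other genes on either strand, Rian 3.42% and Mirg 5.03%. The annotation the reads were counted against is not given in the sources used here, and the part of counting rules in these low values was not tested. The protein-coding neighbours Dlk1 and Rtl1 were listed at 0 as well.

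**Figure D1:**
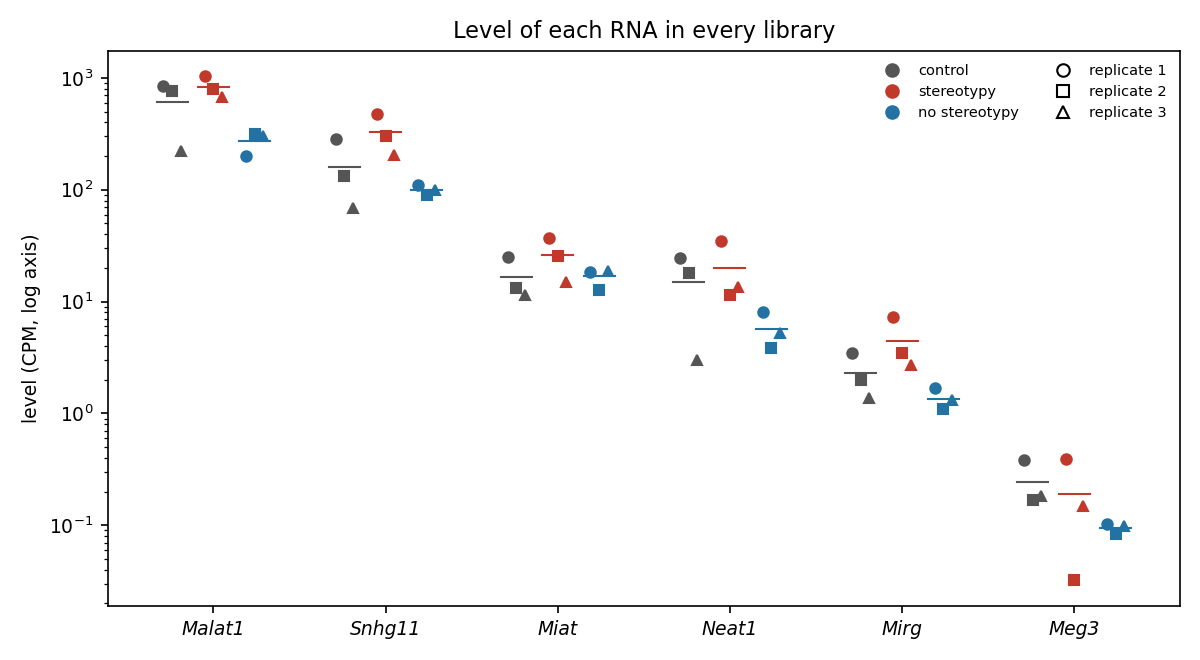
Level of 6 of the 7 RNAs in every library (CPM on a log axis); points are libraries, coloured by group and shaped by replicate, and short lines are group means. Rian, at 0 in all libraries, cannot be drawn on a log axis. For Malat1, Snhg11, Neat1 and Mirg every stereotypy point lies above every no-stereotypy point, and control replicate 3 (grey triangle) lies with the no-stereotypy points for Malat1, Snhg11 and Neat1.

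Levels of different genes were compared per kilobase of exon. Malat1 had 87.5 ± 48.7 CPM per kilobase in controls, 119.5 ± 27.02 with stereotypy and 39.1 ± 8.94 without it (SD, n = 3). Snhg11 came next at 18.9 ± 12.9, 38.6 ± 16.2 and 11.8 ± 1.22 CPM per kilobase, in the same group order. Miat followed at 1.79 ± 0.808, 2.79 ± 1.2 and 1.8 ± 0.372, then Neat1 at 0.727 ± 0.528, 0.965 ± 0.630 and 0.275 ± 0.103, and Mirg at 0.315 ± 0.150, 0.611 ± 0.334 and 0.186 ± 0.0408. The order Malat1, Snhg11, Miat held in the means of all 3 groups. Neat1 and Mirg were neighbours that did not differ beyond their SD in any group. The RNAs were long: the longest annotated transcript had 20771 bases in Neat1, 14548 in Meg3, 9163 in Miat, 8089 in Rian, 6983 in Malat1, 5864 in Snhg11 and 3822 in Mirg, against a median of 2122 over 568 other tested long non-coding genes. Their base composition had no common direction, from 35.8% GC in Rian to 55.1% in Miat around a median of 48.1%. The pentamer AGCCC, known from a nuclear localization element, occurred at 0.371 per kilobase in Rian to 2.09 in Mirg, on both sides of the median of 1.22 in those long non-coding transcripts.

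Promoters are shown for the 3 RNAs that passed the test between the TrkB-deleted groups. Each window runs from 250 bases before to 50 after a RefSeq start (GRCm38.p6), 5′ to 3′ along the gene, at chr19:5802623-5802922 (minus strand), chr2:158375463-158375762 (plus) and chr12:109734731-109735030 (plus). The Mirg window belongs to a RefSeq start inside the longer GENCODE gene. Windows were searched on both strands for the full cAMP response element TGACGTCA, the AP-1 site TGANTCA and the Egr site GCGTGGGCG, and matches would be in capitals.

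Malat1: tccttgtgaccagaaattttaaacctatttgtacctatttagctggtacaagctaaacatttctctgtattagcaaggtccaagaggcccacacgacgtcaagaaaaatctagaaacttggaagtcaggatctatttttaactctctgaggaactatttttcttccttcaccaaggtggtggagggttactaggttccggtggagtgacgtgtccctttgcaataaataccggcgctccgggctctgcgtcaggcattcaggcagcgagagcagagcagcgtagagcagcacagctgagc
Snhg11: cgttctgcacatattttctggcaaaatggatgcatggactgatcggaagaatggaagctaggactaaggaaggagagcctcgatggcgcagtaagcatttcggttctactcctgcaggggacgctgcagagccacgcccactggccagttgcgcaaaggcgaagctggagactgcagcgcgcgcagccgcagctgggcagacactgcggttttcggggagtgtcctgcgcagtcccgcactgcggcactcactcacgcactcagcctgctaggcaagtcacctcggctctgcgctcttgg
Mirg: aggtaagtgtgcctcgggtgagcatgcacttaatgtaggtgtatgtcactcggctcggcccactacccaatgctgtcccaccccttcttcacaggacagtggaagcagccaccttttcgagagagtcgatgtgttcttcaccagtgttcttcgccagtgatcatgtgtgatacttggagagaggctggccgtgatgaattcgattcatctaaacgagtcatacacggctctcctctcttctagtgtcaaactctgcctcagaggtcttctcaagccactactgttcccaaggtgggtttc

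None of the 3 windows held any of these motifs. RefSeq windows were found for 6 of the 7 genes (7 windows, with 2 starts for Meg3), and TGACGTCA was in 1 of them, the first Meg3 start. Of all 32851 RefSeq windows 1.79% held TGACGTCA, 7.81% held TGANTCA and 0.612% held GCGTGGGCG. These counts describe letters in a window and not binding.

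Between the TrkB-deleted groups, with the study's question being how mice with and without stereotypy differ, 3 of the 5 tested RNAs, Malat1, Snhg11 and Mirg, were higher with stereotypy and none was lower at a limma adjusted p under 0.05. edgeR and DESeq2 on the recovered reads each called the same 3. The other 2, Neat1 and Miat, had positive differences that did not pass. Of all 13695 genes 10.2% were called in either direction in this comparison and 6.61% were called higher with stereotypy. The 5 RNAs were chosen with earlier results of these data known, so these shares are a setting for the count and not a test of it. The median difference of the 5 tested RNAs was 1.53 on the log2(CPM + 1) scale, and that of all tested genes was 0.018. For 4 of the 5, all but Miat, every stereotypy library was above every no-stereotypy library, which was the case for 20.8% of all tested genes. The calls did not hold when any single library of either group was left out: without stereotypy replicate 1, 2 or 3 or no-stereotypy replicate 1, 2 or 3 none of the 5 passed, with adjusted p up to 0.124 for Malat1, 0.106 for Snhg11 and 0.123 for Mirg. Without the 2 libraries with high Xist in turn, Malat1 differed by 1.76 (stereotypy replicate 3 left out, limma adjusted p = 0.1004) and 1.7 (no-stereotypy replicate 3 left out, 0.0541). Over all refits without 1 library the differences were positive, from 1.41 to 1.76 for Malat1, 1.31 to 1.92 for Snhg11 and 0.79 to 1.36 for Mirg.

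**Figure D2:**
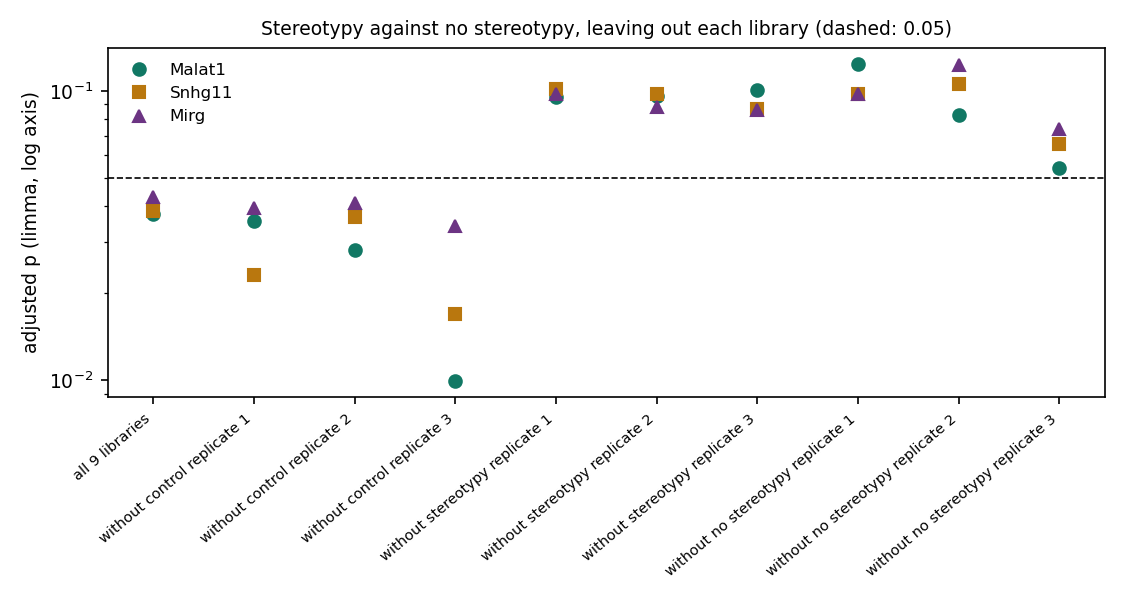
Adjusted p of Malat1, Snhg11 and Mirg for stereotypy against no stereotypy (limma, log axis) with all 9 libraries and with each library left out in turn; the dashed line is the threshold of 0.05. Points are under the line with all libraries and without any 1 control, and above it without any 1 stereotypy or no-stereotypy library.

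Against control, none of the 5 tested RNAs passed in the stereotypy group, where 5.1% of all genes were called. Snhg11 had the largest value, 1.17 (SE 0.42, limma adjusted p = 0.127), followed by Mirg at 0.69 (0.199), Malat1 at 0.65 (0.369), Miat at 0.60 (0.295) and Neat1 at 0.59 (0.588), with limma adjusted p in parentheses. Before adjustment 2 of the 5, Snhg11 and Mirg, were under 0.05 in limma, and edgeR and DESeq2 each called 0. Without control replicate 1 Snhg11 passed at a difference of 1.7 (limma adjusted p = 0.0272).

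In the group without stereotypy, where 6.77% of all genes were called against control, again none of the 5 passed. Malat1 was at -0.97 (SE 0.42, limma adjusted p = 0.202), Neat1 at -0.94 (0.405), Snhg11 at -0.45 (0.583), Mirg at -0.44 (0.442) and Miat at 0.073 (0.930), with limma adjusted p in parentheses. Before adjustment 1 of the 5, Malat1, was under 0.05 in limma, and edgeR and DESeq2 called 0. These values turn on control replicate 3: without it Malat1 was at -1.58 (limma adjusted p = 0.00287) and Neat1 at -1.76 (0.0312), so that both passed. The 2 comparisons with control share the same 3 control libraries.

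When the 2 TrkB-deleted groups were averaged and set against control, where 5.72% of all genes were called, the differences were -0.16 for Malat1, -0.17 for Neat1, 0.12 for Mirg, 0.34 for Miat and 0.36 for Snhg11. None passed in limma, edgeR or DESeq2, and none had an unadjusted limma p under 0.05, the lowest being 0.266 for Miat. Without control replicate 3 Malat1 passed at -0.78 (limma adjusted p = 0.0458). For these RNAs the stereotypy and no-stereotypy groups lay on opposite sides of the control mean, with the exception of Miat, whose value against control was positive in both.

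**Figure D3:**
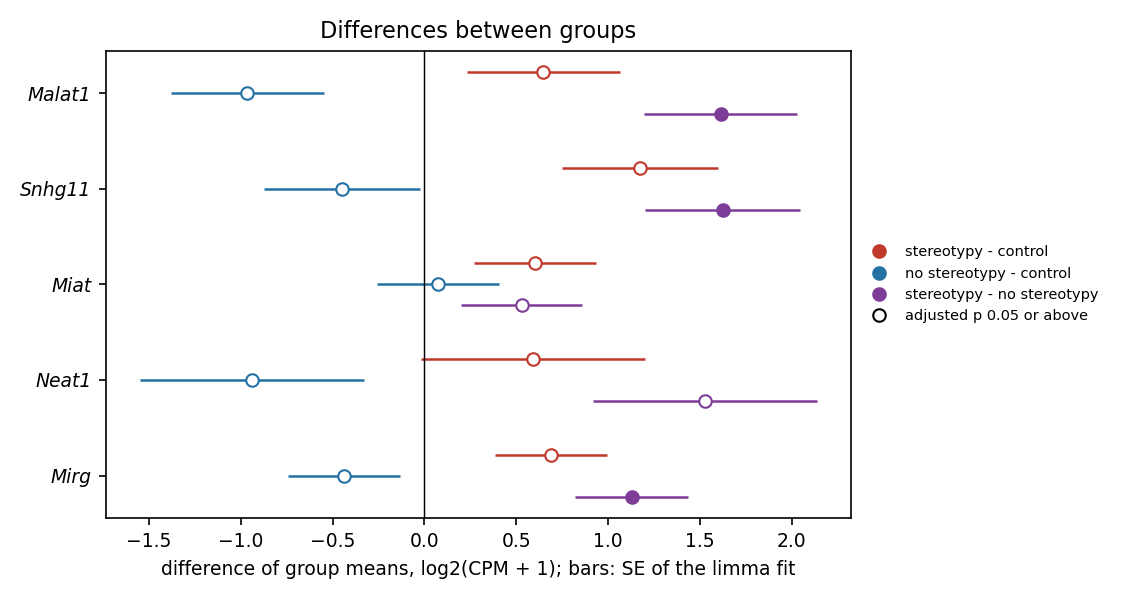
Difference of group means on the log2(CPM + 1) scale for the 5 tested RNAs in the 3 pairwise comparisons; bars are the SE of the limma fit, and filled points have an adjusted p under 0.05. The 3 filled points are Malat1, Snhg11 and Mirg for stereotypy minus no stereotypy.

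The RNAs varied together from library to library. Summed over the 7 genes, the level was 1188, 925 and 306 CPM in the controls, 1598, 1140.0 and 905 with stereotypy, and 341, 422 and 429.8 without it. Means were 807 ± 453, 1214 ± 352 and 397 ± 49.3 CPM (SD, n = 3), in the same order. Malat1 made up 59.1 to 82.2% of the sum, so the sum without it is also given: 195, 379.8 and 124 CPM on average. Across the 9 libraries Pearson's r of log2(CPM + 1) between pairs of the 5 tested RNAs ran from 0.592 for Malat1 and Miat to 0.960 for Mirg and Snhg11. These r describe the libraries, which also share depth, groups and cell makeup, and carry no p. The library with the highest level was stereotypy replicate 1 for all 5, and control replicate 3 was the lowest of all for Neat1, Miat and Snhg11.

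By likeness to Malat1 over the 9 libraries, among 9833 genes with a mean of at least 5 CPM, the closest were Impa1, an inositol monophosphatase (r = 0.984), Siah1a, a ubiquitin ligase (0.971), Taf1b (0.956), Ccdc47 (0.952) and the long non-coding RNA Cep83os (0.945). Their range was much narrower than that of Malat1: Impa1 went from 72.7 to 99.8 CPM. Closest to Snhg11 were Mir124a-1hg, the host of the neuronal microRNA miR-124 (0.991), Rars2 (0.982), Firre, a nuclear RNA from the X chromosome (0.976), Ints6l (0.972) and the mitochondrial gene mt-Cytb (0.959). Mir124a-1hg and Firre were also closest to the mean standardized profile of the 5 tested RNAs (r = 0.982 and 0.969), followed by Ccnl2, a cyclin with detained introns (0.957), Ssbp1 (0.952) and Hspa9 (0.951). Each r is over 9 libraries and is a description. Meg3 was not searched because it was not among the genes tested.

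Other nuclear RNAs moved in part with the 7. The lists here and below were chosen with earlier results of these data known. Of 18 further nuclear long non-coding RNAs in the files 15 were tested, and 6 were higher with stereotypy than without, 0 were lower and 9 did not pass, with a median difference of 0.83. Mir124a-1hg was at 41.1, 26.6 and 18.96 CPM with stereotypy and 10.9, 6.95 and 8.67 without it (1.55, limma adjusted p = 0.0350). Firre was at 27.1, 14.8 and 12.5 and 6.28, 6.16 and 6.56 CPM (1.31, limma adjusted p = 0.0295). Both were low in control replicate 3, at 5.7 and 4.78 CPM, and higher in the other 2 controls. The most abundant of the list, Peg13, an imprinted nuclear RNA, was at 357 to 368 CPM in controls, 332 to 355 with stereotypy and 327 to 375 without it (-0.073, limma adjusted p = 0.582). In a separate list of 9 small nuclear or structural RNAs, 4 were at 0 in all libraries and only 1 was tested. This was Rn7sk, the small nuclear RNA that holds back transcription elongation. It was at 3.58, 5.53 and 7.56 CPM with stereotypy and 1.27, 2.18 and 2.22 without it (1.15, limma adjusted p = 0.0225). Among all 568 other annotated long non-coding genes tested, 50 (8.80%) were higher with stereotypy and 0 were lower, beside 6.61% called higher over all genes. This class follows the annotated type alone, so it also holds Cct6a, a chaperonin subunit gene typed as a processed transcript.

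Transcripts with detained introns, which are polyadenylated yet kept in the nucleus until the intron is removed, were a further list. It too was chosen with earlier results known, so the share over all genes is a setting for its count and not a test. Of 14 such genes, all tested, 9 were higher with stereotypy than without and 0 were lower, beside 6.61% of all genes called higher. Their median difference was 0.56, against 0.018 for all genes. Clk1, a kinase of splicing factors, was at 38.4, 23.4 and 29.3 CPM in controls, 67.96, 54.9 and 45.1 with stereotypy and 19.4, 27.2 and 23.2 without it (1.22, limma adjusted p = 0.0156), and it also passed against control (0.87, 0.0339). Clk4, of the same family, had 53.1, 33.4 and 28.8 and 17.8, 19.9 and 18.7 CPM (0.95, limma adjusted p = 0.0295). The most abundant of the list, the helicase gene Ddx5, had 909, 893 and 895 and 592, 541 and 749 CPM (0.53, limma adjusted p = 0.0396). The deposited values are per gene, so reads of the detained introns could not be separated from those of spliced messages. With stereotypy replicate 2 or 3 or no-stereotypy replicate 1 or 2 left out, 0 of the 14 and 0 of the 15 nuclear RNAs passed. Without stereotypy replicate 1 these counts were 2 and 3, and without no-stereotypy replicate 3 they were 8 and 4. With the other-neuron covariate described below both counts were 0, and with the glial and vascular covariate they were 2 and 0. edgeR called 9 and 6.

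Genes for proteins of the bodies in which Malat1 and Neat1 reside were tested next, again beside 6.61% of all genes called higher. Of 15 tested genes of nuclear speckle and splicing proteins 3 were higher with stereotypy than without and 0 were lower, at a median of 0.30: Qk (0.74), a splicing regulator, Srrm1 (0.54) and Pnn (0.53). That is 20.0% of the 15. This count was 0 with either marker covariate and without stereotypy replicate 2 or 3 or no-stereotypy replicate 1 or 2, it was 1 with no filter and without stereotypy replicate 1, and it was 10 with array weights. Of 11 tested paraspeckle protein genes 1, Matr3 (0.52, limma adjusted p = 0.0377), was higher, at a median of 0.18. The core paraspeckle genes Nono, Sfpq and Pspc1 had values of 0.089, -0.15 and 0.089, and none passed. Among 12 tested hosts of small nucleolar RNAs and cytoplasmic non-coding RNAs 1, Snhg17, passed (0.72, limma adjusted p = 0.0468), at a list median of 0.34; Gas5, the most abundant of them, was at 14.8 to 15.9 CPM with stereotypy and 8.01 to 20.1 without it (0.33, limma adjusted p = 0.479). Ralgapb, a coding gene next to Snhg11, did not pass (0.13, limma adjusted p = 0.309). Of 13 tested genes for RNA export and decay factors 2 were higher with stereotypy, Thoc2 (0.50), of the export complex, and Ythdc1 (0.38), a nuclear reader of methylated RNA. Of 21 tested imprinted genes outside the Dlk1-Dio3 domain 4 were higher, among them Zdbf2 (0.83) and the ubiquitin ligase gene Ube3a (0.66).

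**Figure D4:**
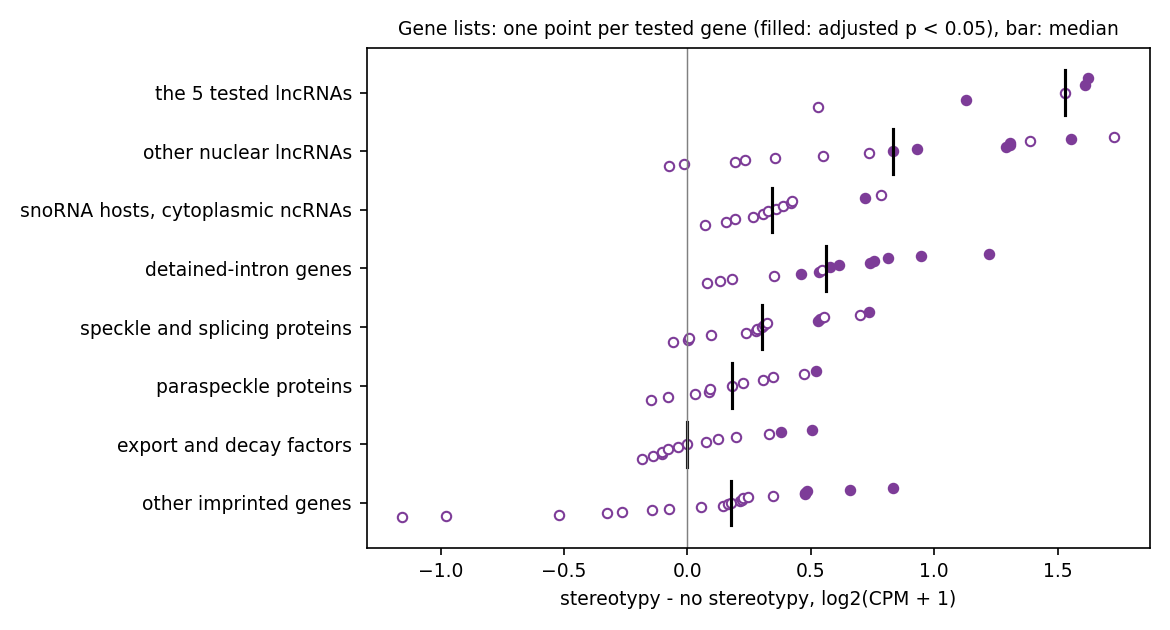
Stereotypy minus no stereotypy on the log2(CPM + 1) scale for each tested gene of 8 lists; filled points have a limma adjusted p under 0.05 and bars are list medians. Among the 8 lists drawn, the 5 tested long non-coding RNAs have the highest median (1.53), followed by the other nuclear long non-coding RNAs (0.83) and the detained-intron genes (0.56). Cell marker lists are not drawn. Their medians ran from 1.11 for vascular markers to -1.28 for cortical excitatory markers.

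Against control, with stereotypy, the lists were read beside 5.1% of all genes called. Sox2ot, which overlaps the stem cell factor gene Sox2, was the nuclear long non-coding RNA of the list that was higher with stereotypy, at 4.63, 3.68 and 5.7 CPM in controls and 14.4, 9.51 and 9.26 with stereotypy (1.08, limma adjusted p = 0.0155), and no other passed of 15 (6.67%). Of the 14 detained-intron genes 2 were higher than control with stereotypy, Clk1 and the glycosyltransferase gene Ogt (0.50, limma adjusted p = 0.0269), or 14.3%. The count of 2 was 0 without control replicate 2, control replicate 3 or stereotypy replicate 2, with no filter and with the glial and vascular covariate, 1 without stereotypy replicate 1 or 3 and with edgeR, and 4 without control replicate 1 and with DESeq2. The Sox2ot list had 0 calls with no filter and with the glial and vascular covariate, and 4 without control replicate 1. In 3 further lists 1 gene each was higher: Pnn (0.39) of 15 speckle and splicing genes, Mettl14 (0.63), part of the RNA methyltransferase, of 13 export and decay genes, and the imprinted gene Peg10 (0.76) of 21. Without stereotypy, beside 6.77% of all genes called, the imprinted gene Inpp5f was lower (-0.75), and 0 of the 15 nuclear RNAs and 0 of the 14 detained-intron genes passed in limma or edgeR, while DESeq2 called 2 and 0. Of 5 tested genes of the Dlk1-Dio3 domain and its flanks, other than the 7 RNAs, Begain was lower than control in both TrkB-deleted groups, and Wars, a tRNA synthetase gene, was higher without stereotypy (0.38, limma adjusted p = 0.0249), so that 1 of 5 was called with stereotypy and 2 of 5 without it. None of the 5 passed between the TrkB-deleted groups, where Mirg did.

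Markers of D1 neurons and of other cells moved with the same libraries. The sum of 9 D1 markers was 2576, 2448 and 1902 CPM in control replicates 1, 2 and 3, 2349 to 2446 with stereotypy and 1580.3 to 1954 without it. As for the nuclear RNAs, the no-stereotypy libraries and control replicate 3 were the low ones. Between the TrkB-deleted groups 2 of 9 D1 markers, Drd1 (0.57, limma adjusted p = 0.0249) and Slc35d3 (0.65, 0.0493), were higher with stereotypy, at a list median of 0.49. So were 4 of 10 markers of medium spiny neurons in general, beside 6.61% of all genes called higher. Of these 10 markers 7 had a positive difference. Their sums overlapped, at 14946 to 15469 CPM with stereotypy and 11984 to 15602 without it. The part of D1 marker levels in the result was not tested. The summed level of 5 D2 neuron markers was 443 to 1433 CPM in controls, 259 to 424 with stereotypy and 597 to 1050.1 without it. That of 8 cortical excitatory markers was 2756 to 4034, 2714 to 3632 and 3827 to 4672 CPM, and that of 10 interneuron markers 225 to 505, 222 to 399 and 338 to 514 CPM. Lower with stereotypy were 0 of 5 D2 markers, 2 of 8 cortical markers (Slc17a7 and Emx1) and 1 of 10 interneuron markers (Slc18a3), beside 493 of all 13695 genes. No marker of these lists was at 0 in all libraries. The mean log2(CPM + 1) of the other-neuron markers was 3.73 to 4.21 with stereotypy and 4.87 to 5.64 without it, and control replicate 3, the control with low nuclear RNA, was at 5.64 against 4.14 and 4.48 in the other controls. With this mean as a covariate the stereotypy-minus-no-stereotypy difference was 0.78 for Malat1 (limma adjusted p = 0.308), 1.09 for Snhg11 (0.230), 0.96 for Mirg (0.186) and 0.29 for Neat1 (0.807), and 0 of all 13695 genes passed. The marker level did not overlap between the 2 groups, so in this design it and the group cannot be told apart. In such bulk libraries fewer cells of a type and less RNA per cell cannot be told apart either.

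Glial and vascular markers were in part higher where the nuclear RNAs were high. Vascular markers had a median difference of 1.11 between the TrkB-deleted groups, where 6.61% of all genes were called higher with stereotypy. The sum of 12 astrocyte markers was 471 to 575 CPM in controls, 680.3 to 704 with stereotypy and 474 to 591 without it, and 3 of the 12, Slc1a3 and Gja1 among them, were higher with stereotypy than without. Against control 7 of the 12 astrocyte markers were higher with stereotypy (58.3%, at a median of 0.86), beside 5.1% of all genes called. The part of astrocyte RNA in the calls of Sox2ot, Clk1 and Ogt against control, made in the same libraries, was not tested. For 10 microglial markers the sums were 17.5 to 34.7, 38.9 to 48.01 and 22.6 to 29.8 CPM, with 2 of 10, Csf1r and P2ry12, higher, and for 11 vascular markers 21.4 to 45.1, 41.2 to 98.05 and 16.2 to 29.9 CPM, with 2 of 10 tested, Slco1a4 and Flt1, higher. The 12 oligodendrocyte markers had overlapping sums of 1227 to 2185 and 788 to 1809 CPM. The mean of glial and vascular markers on the log2(CPM + 1) scale was 3.1 to 3.47 with stereotypy and 2.49 to 3.02 without it. Controls 1 and 2, where the nuclear RNAs were high, were at 2.63 and 2.45, and control replicate 3 was at 2.81. With the glial and vascular mean as a covariate Malat1 differed by 2.15 (limma adjusted p = 0.0582), Snhg11 by 1.58 (0.177) and Mirg by 0.995 (0.240). This mean did not overlap between the TrkB-deleted groups either, so in this design it and the group cannot be told apart. Reads of mitochondrial genes made up 0.201 to 0.285% of the library with stereotypy, 0.0673 to 0.113% without it and 0.0881 to 0.201% in controls. The part of mitochondrial RNA in the result was not tested.

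**Figure D5:**
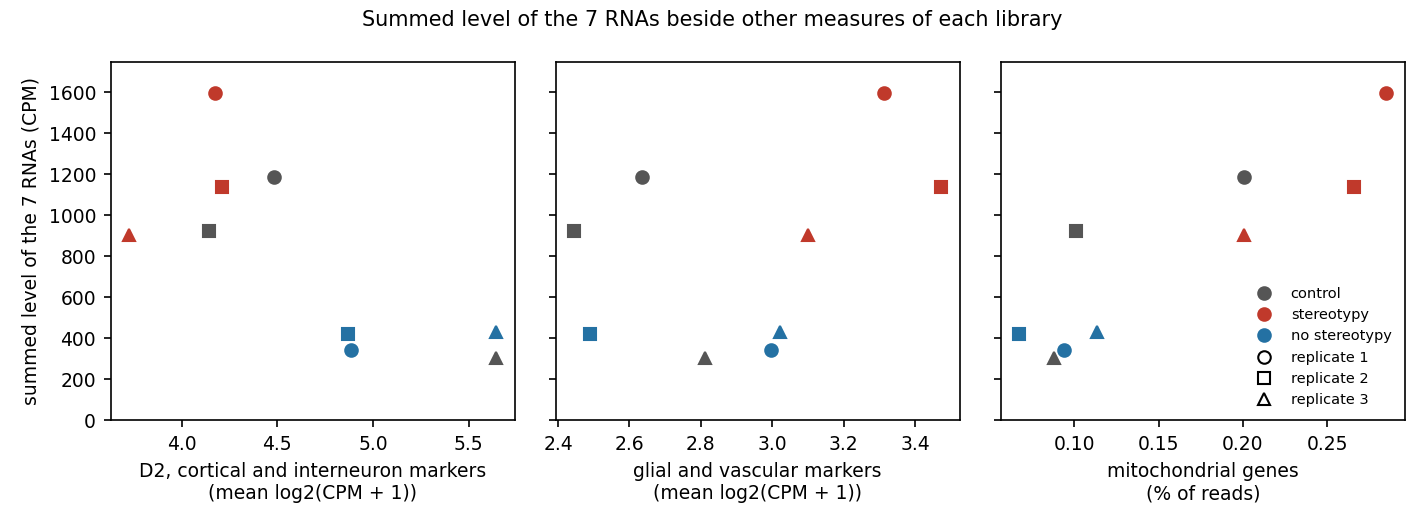
Summed level of the 7 RNAs in each library (CPM) against the mean level of D2, cortical and interneuron markers, the mean level of glial and vascular markers (both log2(CPM + 1)) and the percentage of mitochondrial reads. Each point is a library; the no-stereotypy libraries and control replicate 3 have the lowest sums and the highest other-neuron marker levels.

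The share of all reads on annotated long non-coding genes was 2.74% ± 0.266 in controls, 3.31% ± 0.869 with stereotypy and 2.07% ± 0.298 without it (SD, n = 3), but most of it fell on Gm42418, which overlaps an annotated ribosomal RNA gene. Without Gm42418 the shares were 0.540% ± 0.0461, 0.606% ± 0.0329 and 0.447% ± 0.00986. With the 7 RNAs left out too, 0.517% ± 0.0127 of reads remained with stereotypy and 0.417% ± 0.00409 without it, and the controls were between them at 0.475% ± 0.0120, control replicate 3 included (0.463%). The ranges of the 3 groups did not overlap for this last share, whereas the summed level of the 7 RNAs in controls reached from below the no-stereotypy range into the stereotypy range. These shares include Cct6a, at a mean of 212 CPM in controls, 226 with stereotypy and 215 without it.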

How the data were processed

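RNA from HA precipitates of dorsal striatum (3 libraries in each of 3 groups; RNeasy Micro extraction, NEBNext Ultra libraries, per the labels' protocols) was analysed from the authors' deposited CPM values, 1 table per library. TopHat and GRCm38 are named in the submitters' processing notes; the counting program, its annotation and strand use are not named there. All CPM values came out as whole reads within 0.1 reads. GENCODE M21 named 47310 of 47729 identifiers (99.1%); the 419 others held at most 0.0632% of reads.

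The 7 genes and all gene lists were chosen with earlier results of these data known. Genes that reached 1 CPM in 3 or more libraries were fitted as log2(CPM + 1) by limma 3.58.1 (R 4.3.3), 1 mean per group over 9 libraries (6 residual degrees of freedom), trended variance, and Benjamini-Hochberg adjustment over all 13695 genes at 0.05; folds on this scale understate changes of low genes. The fit was tested on simulated data first. Named genes were all 7, then from each list up to 2 per direction past the threshold by size plus the most abundant, and the 5 genes closest by Pearson's r; Pnn, the core paraspeckle genes and Ralgapb are named beside these. Alternatives were other pseudocounts (0.25, 4), filters, scalings, array weights, a replicate block, marker covariates, a fit to 6 libraries, edgeR 4.0.16 and DESeq2 1.42.0 on the recovered reads, and leaving out each library; list counts under them were added after seeing the data. The 3-read limits cover counting error only; no molecular identifiers are named in the labels. Library pairs all differed beyond counting noise.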

Additional observations from a re-analysis of the deposited data

How the results depend on the processing

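Over 23 alternatives the difference between the TrkB-deleted groups ranged from 0.78 to 2.15 for Malat1 and 1.09 to 1.92 for Snhg11, each called in 14, and over 22 from 0.62 to 1.68 for Mirg, called in 12; adjusted p ran from 0.00327 to 0.308, 0.00434 to 0.230 and 0.00287 to 0.240. The number of the 5 RNAs past the threshold there, 3, was 0 with no filter, with the glial and vascular covariate and with the other-neuron covariate, 2 with a pseudocount of 4 (Mirg at an adjusted p of 0.0521), 4 in the fit to 6 libraries, where Neat1 also passed, and 0 to 4 when 1 library was left out (4 without control replicate 3, again with Neat1). Against control it was 1 instead of 0 for stereotypy with the replicate block (Snhg11) and 0 to 1 with 1 library left out, 0 to 2 for no stereotypy, and 0 to 1 for both groups together. The replicate block called 1132 genes higher and 656 lower between the TrkB-deleted groups, against 905 and 493, and changed no other count of the 5 RNAs. Whether the numbers pair the libraries could not be told from correlations between libraries. Those of same-numbered libraries ran from -0.080 to 0.406, and those of differently numbered libraries from -0.42 to 0.25. Not every library correlated best with its own number. Array weights called 2740 higher and 1958 lower, DESeq2 1251 and 1092, edgeR 778 and 557, no filter 419 and 153, the glial and vascular covariate 92 and 333, and the other-neuron covariate 0 and 0. Leaving out stereotypy replicate 1 gave 522 and 284, replicate 2 gave 1 and 0, replicate 3 gave 0 and 0, and leaving out no-stereotypy replicate 1 or 2 gave 0 and 0. Median-of-ratios scaling changed 490 higher and 209 lower to 382 and 339 for stereotypy against control, and 503 and 281 to 391 and 361 for both groups. For the 5 RNAs one by one, 393 values kept direction and side of the threshold, 28 lost the call, 7 gained it and 23 changed sign, none called with either sign; the cause was not tested. With the other-neuron covariate Neat1 was -0.22 for stereotypy against control, and with the glial and vascular covariate Miat was -0.031. For no stereotypy against control Miat was -0.13 with array weights, -0.12 with the glial and vascular covariate, -0.029 with edgeR and -0.022 with DESeq2. For both groups against control the glial and vascular covariate gave 0.35 for Malat1, 0.10 for Neat1, -0.077 for Miat and -0.00078 for Mirg. Leaving out 1 library gave -0.23 to 1.11 for Neat1 in stereotypy against control, -0.14 to 0.40 for Miat and -0.94 to 0.072 for Snhg11 in no stereotypy against control, and -0.78 to 0.19 for Malat1, -0.99 to 0.34 for Neat1, -0.085 to 0.37 for Mirg and -0.13 to 0.88 for Snhg11 in both groups against control. The mean summed level without Malat1 was 195 CPM in controls, 379.8 with stereotypy and 124 without it, and the long non-coding share without Gm42418 was 0.540%, 0.606% and 0.447%. Mirg gave no value under the filter of a mean of at least 5 CPM. Counts for the lists of other nuclear RNAs, of detained-intron genes and of speckle genes between the TrkB-deleted groups, alternatives chosen after seeing the data, ran from 0 to 10 each. Depth limits Meg3, at 1 to 14 reads, and Mirg, at 39 to 202.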

Other observations

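Of 568 annotated long non-coding genes tested outside the 7, 5 were higher and 3 lower than control with stereotypy (1.41% called). Without stereotypy 4 were higher and 15 lower (3.35%). Of all genes, 5.1% and 6.77% were called in these 2 comparisons. In the first 2 genes named here both TrkB-deleted groups differed from control, with control replicate 3 beside the other controls. Gm14204 was at 7.39, 9.22 and 7.63 CPM in controls, 31.6, 22.05 and 31.6 with stereotypy and 21.01, 18.5 and 15.6 without it, higher than control in both groups (1.68 and 1.09 on the log2(CPM + 1) scale, limma adjusted p = 0.000731 and 0.00478). Gm39043 was at 17.8, 22.6 and 14.9 CPM in controls, 4.51, 2.31 and 5.98 with stereotypy and 2.69, 3.17 and 1.85 without it, lower in both (-1.93 and -2.45, limma adjusted p = 0.00486 and 0.000780). Mir22hg, the host of miR-22, was at 15.9, 18.7 and 12.6 CPM in controls, 11.7, 11.5 and 11.4 with stereotypy and 7.57, 7.7 and 9.54 without it, and was lower than control without stereotypy (-0.84, limma adjusted p = 0.0105), not with it (-0.40, 0.145). Both comparisons share the control libraries. Beside the imprinted domain of Meg3, Rian and Mirg, the coding gene Begain was at 115, 149 and 138 CPM in controls, 74.01, 80.6 and 62.2 with stereotypy and 92.9, 88.8 and 85.1 without it, lower than control in both groups (-0.88 and -0.58, limma adjusted p = 0.00452 and 0.0171).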
